A study of Mus musculus with 18 samples.

Results

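The question was how the effect of losing Id3 on the messenger RNA of cultured CD4 T cells differed between late and early samples. Late means library sets 5 and 6 and early means set 3, as the labels number them. The names of the authors' own contrasts put a 96 beside sets 5 and 6 and a 24 beside set 3, and give no unit. All 18 RNA-seq libraries of the series entered, 3 in each of 6 groups: Id3-KO and WT cells of sets 5, 6 and 3. Every group started from naive mouse CD4 T cells, activated with beads carrying anti-CD3 and anti-CD28 and cultured in IMDM with IL2, IL12 and anti-IL4, a medium that favours Th1 cells. The genotype was the difference between KO and WT, and the labels give no strain, age or sex. They do not say whether replicates came from separate mice or cultures, and p-values therefore measure library-to-library spread alone, which may be technical.

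For each of 12547 genes the knockout effect is the KO minus WT difference in log2 values, and the quantity described here is the late effect (mean of the set 5 and set 6 differences) minus the early effect (set 3). Values were centred, so that 0 is the median gene of a library, 1 unit is a doubling, and a negative value is a level below the median gene. A positive late minus early difference means that KO stood higher relative to WT in late than in early samples. Tests were limma's moderated tests with Benjamini-Hochberg adjustment over all genes, and a gene is called when its adjusted p is under 0.05. Depth per library is unknown. The sorted values were identical in all 3 libraries of a group for 97.0 to 98.4% of genes, so libraries of a group share 1 scale and their remaining spread may be narrower than in raw counts.

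Id3 is one of the inhibitor of DNA binding proteins, which pair with E proteins and keep them off the E-box sequences in their target genes. In CD4 T cells E proteins and Id proteins together set the threshold for activation and for the choice among helper fates. Th1 cells make interferon gamma under the factor T-bet, and Th2 cells make IL4, IL5 and IL13 under GATA3.

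Id3 itself was checked first. It stood at -7.55, -3.93 and -6.76 in KO and 0.36, -0.25 and -0.32 in WT libraries of set 5, and at -8.66, -4.7 and -5.2 in KO and 0.24, -0.09 and -0.36 in WT libraries of set 6. Set 3 gave -7.03, -5.83 and -5.54 in KO and 0.87, 0.53 and 0.39 in WT libraries of set 3. KO libraries were far below WT libraries in every set, and the late minus early difference of 0.67 (SE 1.09, adjusted p = 0.662 by limma) did not pass the test. Id2, the sister gene, was higher in KO both late (by 0.88) and early (by 1.35), and the difference between these effects, -0.47 (SE 0.19), gave an adjusted p of 0.0667. Summed CD4 T cell markers were 7.49 to 7.55 in KO and 7.35 to 7.51 in WT libraries of sets 5 and 6, against 6.49 to 6.70 in KO and 6.91 to 7.02 in WT libraries of set 3. Cd4 itself stood at 3.21 ± 0.13 in KO and 2.81 ± 0.12 in WT cells of set 5 (SD, n = 3 here and below), 3.55 ± 0.11 in KO and 3.06 ± 0.20 in WT cells of set 6, and 2.51 ± 0.22 in KO and 3.12 ± 0.12 in WT cells of set 3. The labelled cell type was thus present in every library, with a lower marker sum in KO than WT libraries of set 3.

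The knockout effect differed between late and early samples for 4791 of 12547 genes (38.2%), 2465 with a positive (19.6%) and 2326 with a negative difference (18.5%). Late effects were called for 7257 genes (57.8%), 3654 higher (29.1%) and 3603 lower in KO (28.7%). Early effects were called for 1327 (10.6%), 915 higher (7.29%) and 412 lower (3.28%). The late mean rests on 12 libraries and the early effect on 6, so a gene can be called late and missed early without a difference between the effects. Those 12 may not be separate, since equal replicate numbers of sets 5 and 6 correlated within a genotype. With these averaged, 5583 late and 1375 early effects were called. On the deposited scale, without centring, the median late minus early difference of all genes was 0.435 instead of 0.008, and the calls split into 6161 positive and 802 negative. Differences below are therefore relative to the median gene. Counts of list members below stand beside the shares of all genes given here.

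Genes with a called difference were sorted by the 2 effects they compare. The effect appeared late (called and at least 1 in size late, not called and under 0.5 early) for 554 genes, 4.42% of all, of which 313 were higher and 241 lower in KO late. It vanished (called and at least 1 in size early, not called and under 0.5 late) for 171 genes (1.36%), 150 of them higher and 21 lower in KO early. It reversed, with both effects called and opposite in sign, for 290 genes (2.31%), of which 123 were higher and 167 lower in KO late. It grew in the same direction for 60 genes (0.478%) and shrank for 43 (0.343%). The other 3673 called genes fell in none of these classes: 3136 had a called late effect only, 2930 of them under 1 in size, 247 a called early effect only, 287 neither and 3 both.

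**Figure D1:**
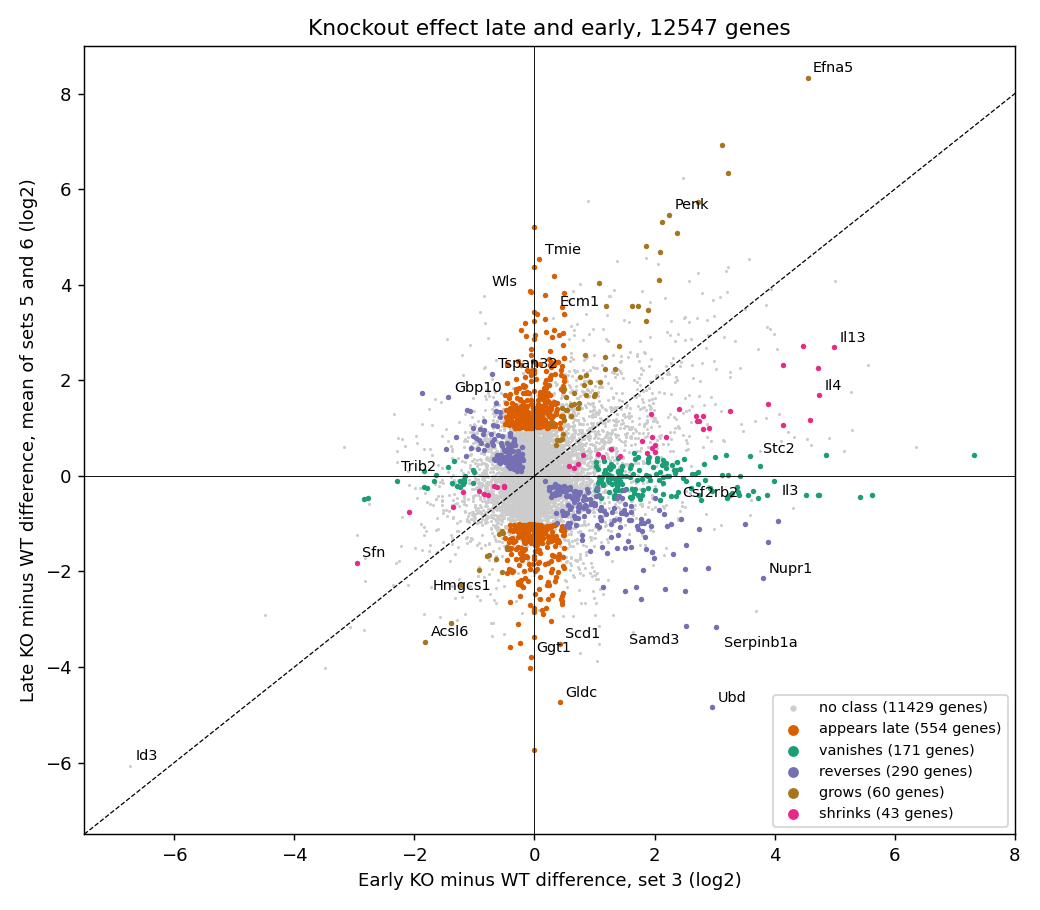
Each point is a gene, with its early KO minus WT difference (set 3, log2) on the x axis and its late difference (mean of sets 5 and 6, log2) on the y axis. Colours mark the 5 classes, grey points are the 11429 genes in none, and the dashed line marks equal effects. Genes whose effect appeared late lie along the vertical axis, those whose effect vanished along the horizontal axis, mostly to the right, and reversing genes in the upper left and lower right. Efna5 is highest at 8.33 late, and Ubd is the lowest of the named reversing genes at -4.84.

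The strongest reversals were genes that KO cells held above WT early and below WT late. Among the 167 such genes the median effect was -0.73 late and 0.94 early, and the median WT level was 2.04 higher late than early while the median KO level was 0.31 higher. KO changed more than WT between early and late in 34 of them (20.4%), against 55.3% of all genes. Values of KO and WT did not overlap in any of the 3 sets for 119 of these genes (71.3%) and for 88 (71.5%) of those reversing the other way. The same held for 12.2% of all genes, but the classes use these effects, so the shares are descriptions.

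Ubd encodes ubiquitin D, also called FAT10, a ubiquitin-like tag that marks proteins for the proteasome. It stood at -7.06, -4.04 and -5.79 in KO and 0.26, -0.67 and -0.14 in WT libraries of set 5, and at -5.44, -3.85 and -6.52 in KO and -0.69, -1.24 and -1.2 in WT libraries of set 6. In the early samples it was at -0.80, -2.23 and -1.84 in KO and -5.2, -4.5 and -4.05 in WT libraries of set 3. The order of the genotypes was opposite without overlap: KO lowest late, WT lowest early. The effects were -4.84 late and 2.96 early, a difference of -7.8 (SE 0.83, adjusted p = 1.25e-05 by limma). Nupr1, a small chromatin protein induced by stress, showed -3.7, -2.47 and -1.27 in KO and 0.30, 0.04 and 0.11 in WT libraries of set 5, and -2.0, -1.46 and -0.99 in KO and 0.04, 0.15 and 0.31 in WT libraries of set 6. Its early levels were -3.24, -4.77 and -3.76 in KO and -6.85, -8.16 and -8.17 in WT libraries of set 3. Both genotypes held more Nupr1 late than early and the increase was larger in WT, and effects of -2.14 late and 3.81 early differed by -5.95 (SE 0.63, adjusted p = 1.13e-05). WT replicates 2 and 3 of set 3 were at the lowest values of their libraries. This limits the sizes of the early effect, the WT increase and the difference. The 3 late KO replicates of Nupr1 spread widely in set 5, although all lay below WT.

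Serpinb1a, an inhibitor of neutrophil serine proteases, averaged -4.97 ± 1.58 in KO and -1.56 ± 0.30 in WT cells of set 5, -3.66 ± 1.29 in KO and -0.73 ± 0.32 in WT cells of set 6, and -3.05 ± 0.90 in KO and -6.08 ± 0.84 in WT cells of set 3. Samd3, a SAM domain protein, averaged -5.87 ± 1.82 in KO and -3.13 ± 0.57 in WT cells of set 5, -6.99 ± 0.59 in KO and -3.43 ± 0.78 in WT cells of set 6, and -2.28 ± 0.22 in KO and -4.81 ± 0.34 in WT cells of set 3. Their late minus early differences were -6.2 (SE 0.88, adjusted p = 9.68e-05) and -5.68 (SE 0.81, adjusted p = 9.93e-05). The early effects are the weaker side of these reversals. The early call was lost without KO replicate 1 of set 3 for Ubd, Serpinb1a and Samd3, without WT replicate 1 for Ubd, without WT replicate 3 for Serpinb1a, and also without KO replicate 3, WT replicate 2 and WT replicate 3 for Samd3, with adjusted p between 0.0503 and 0.0775 by limma.

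**Figure D2:**
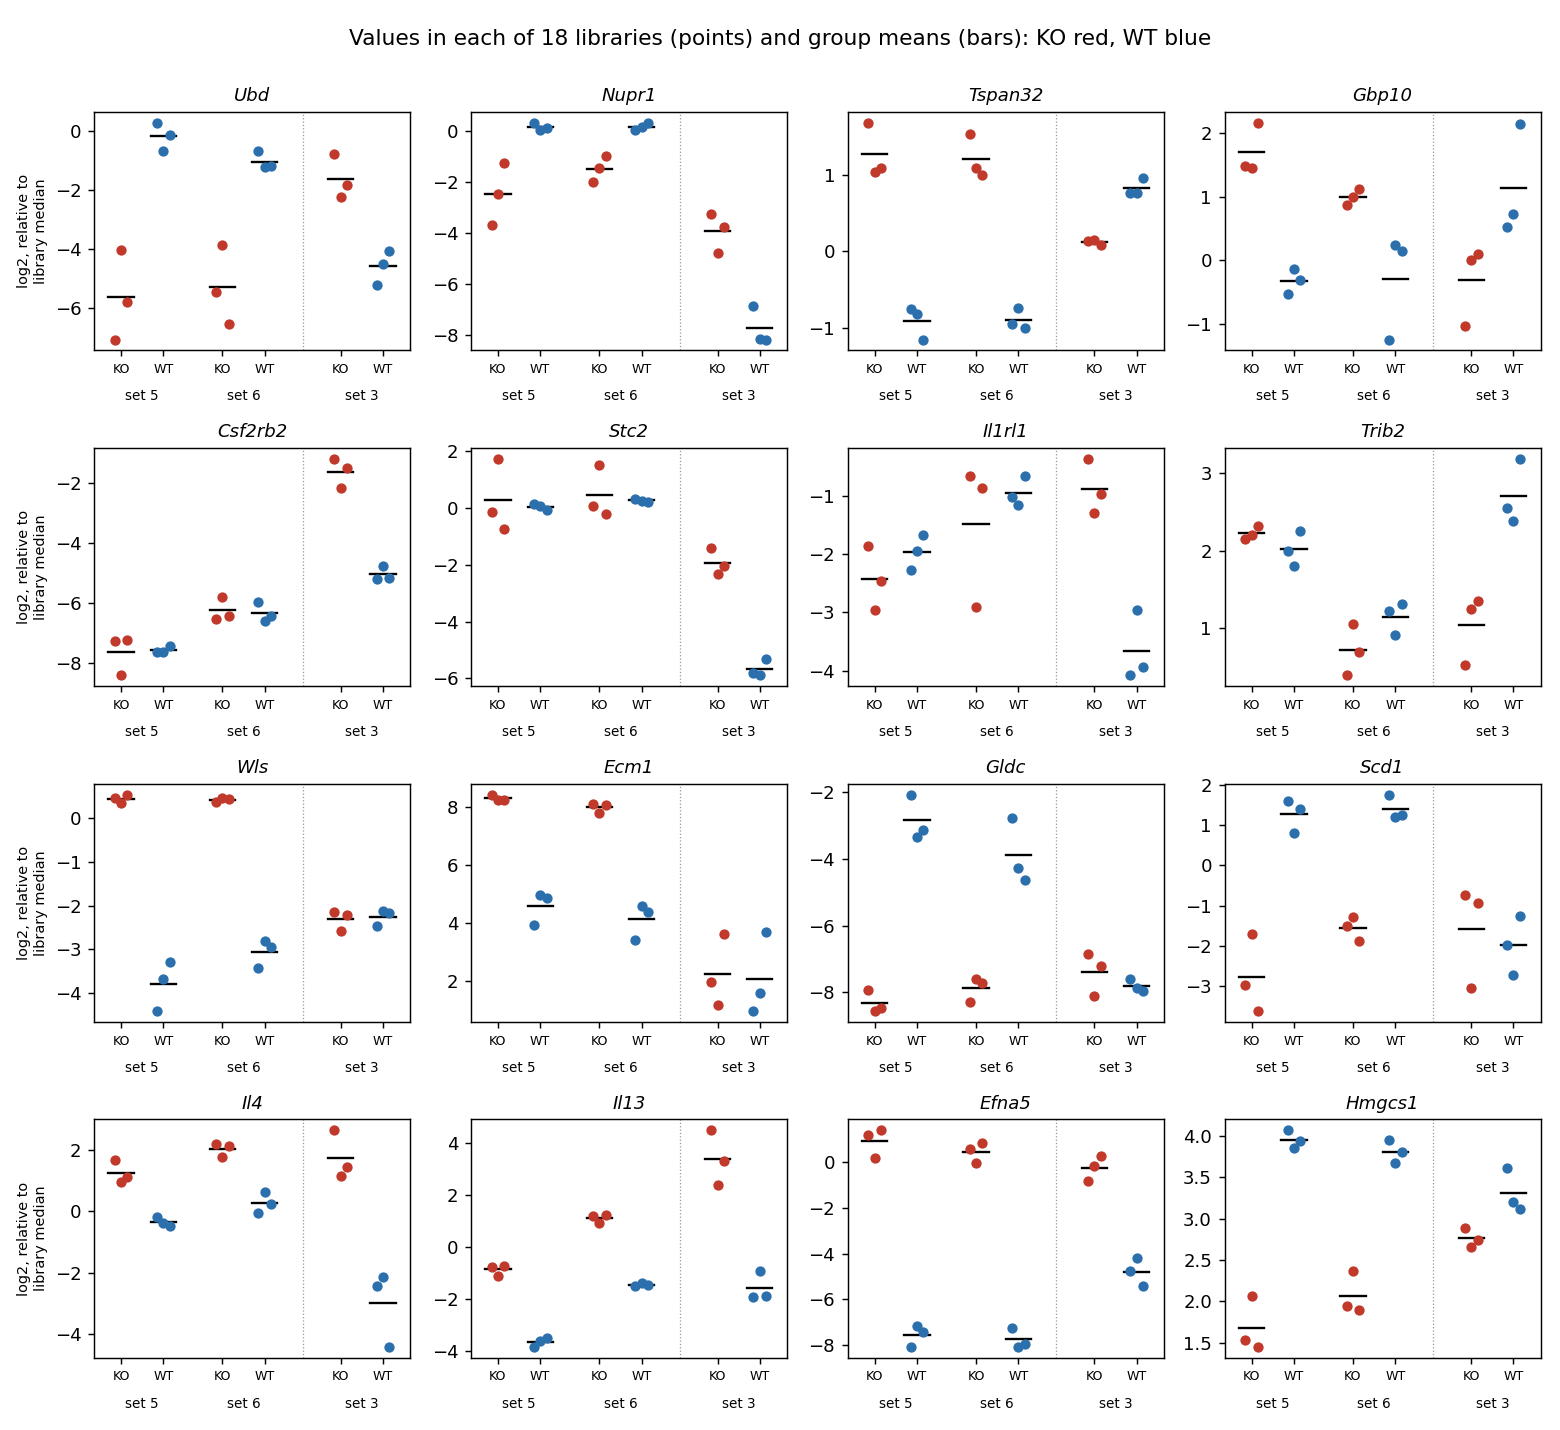
Centred log2 levels of 16 genes in every library, with KO in red to the left of WT in blue for set 5, set 6 and set 3 in turn. Points are libraries and bars are group means of 3 libraries. In Ubd and Nupr1 KO lies below WT in sets 5 and 6 and above WT in set 3, in Tspan32 and Gbp10 the order is the opposite, and in Wls, Ecm1, Gldc and Scd1 the genotypes overlap in set 3 and stand apart in sets 5 and 6.

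Th1 programme genes and homing receptors included further genes with this reversal. Of 25 Th1 genes 4 had a positive and 10 a negative difference, beside 19.6% and 18.5% of all genes. The list's median effects were -0.56 late and 0.44 early, a median difference of -0.48 against 0.008 over all genes. Without centring 7 were positive and 9 negative, and the median difference was -0.05 against 0.435 over all genes. Cxcr6, a receptor that guides effector T cells into tissue, was at 1.93, 2.52 and 2.72 in KO and 3.35, 3.29 and 3.49 in WT libraries of set 5, and at 3.05, 3.27 and 3.47 in KO and 4.29, 4.24 and 4.37 in WT libraries of set 6. Set 3 gave 2.83, 1.3 and 2.25 in KO and -1.78, -0.95 and -1.42 in WT libraries of set 3. KO was lower without overlap in both late sets and higher without overlap early, with a difference of -4.52 (SE 0.36, adjusted p = 1.63e-06 by limma). Ly6c2, a surface protein of effector cells, averaged 2.31 ± 0.33 in KO and 4.46 ± 0.56 in WT cells of set 5, 2.48 ± 0.18 in KO and 4.17 ± 0.45 in WT cells of set 6, and 3.28 ± 0.71 in KO and 0.38 ± 0.27 in WT cells of set 3, a difference of -4.82 (SE 0.40, adjusted p = 1.68e-06). Ccl5, a chemokine that draws T cells, had effects of -1.0 late and 2.27 early, and Cxcr3, the receptor for interferon-induced chemokines, -0.90 late and 1.4 early.

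The central Th1 genes did not share it. Tbx21, which encodes T-bet, averaged -0.06 ± 0.33 in KO and -0.03 ± 0.16 in WT cells of set 5, -0.19 ± 0.26 in KO and 0.07 ± 0.12 in WT cells of set 6, and 1.52 ± 0.12 in KO and 1.94 ± 0.12 in WT cells of set 3, and its difference of 0.27 did not pass (adjusted p = 0.274). Ifng, interferon gamma, had effects of 0.53 late (adjusted p = 0.0512) and 1.38 early (adjusted p = 0.00952), and the difference of -0.85 did not pass either (SE 0.39, adjusted p = 0.0941). Irf1, an interferon-responsive factor on the same list, had a positive difference of 1.9 (SE 0.17, adjusted p = 3.15e-06). The early count of higher Th1 genes, 11, was 6 without KO replicate 1 of set 3.

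Cytotoxic genes split. Of 21 measured, 3 had a positive and 9 a negative difference (6 and 8 without centring), beside 19.6% and 18.5% of all genes. Medians were 0.47 late and 1.12 early. Gzmb, granzyme B, was at 7.61, 8.02 and 7.8 in KO and 7.84, 8.29 and 8.26 in WT libraries of set 5, and at 8.57, 8.9 and 8.57 in KO and 8.77, 9.03 and 8.85 in WT libraries of set 6. Early it was at 6.97, 5.54 and 6.36 in KO and 3.98, 4.6 and 4.6 in WT libraries of set 3. Late genotypes overlapped, and early KO stood above WT, so the early excess of 1.89 was -0.26 late (adjusted p = 0.245), and the difference was -2.15 (SE 0.32, adjusted p = 0.000143 by limma). Gzma, granzyme A, went the other way, with 9.18 ± 0.53 in KO and 2.11 ± 1.36 in WT cells of set 5, 9.72 ± 0.18 in KO and 4.11 ± 0.76 in WT cells of set 6, and 4.93 ± 0.88 in KO and 1.72 ± 0.35 in WT cells of set 3. Its excess in KO was 6.34 late and 3.22 early, a difference of 3.13 (SE 0.68, adjusted p = 0.00211). Gzmc, another granzyme, had a smaller excess late, 1.16, than early, 4.58, and Klrd1, the CD94 receptor, had effects of -1.05 late and 1.7 early. The summed level of NK cell markers was 2.29 to 3.29 in KO and 3.39 to 4.02 in WT libraries of set 5, 2.3 to 3.09 in KO and 3.52 to 3.67 in WT libraries of set 6, and 2.93 to 3.19 in KO and 2.07 to 2.56 in WT libraries of set 3. In this sum the genotypes stood in opposite order late and early without overlap. Only 1 of the 10 markers had a called difference, which was negative. The list's median effects were 0.02 late and 0.85 early, so the sum does not stand for every member. Ncr1, a defining NK cell receptor, was at the lowest value in all libraries of set 5, and the part of NK cells in these differences was not tested.

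Of 15 chemokine receptors 1 had a positive and 6 a negative difference, beside 19.6% and 18.5% of all genes. The median difference was -0.58, or -0.15 without centring, where 3 were positive. The positive count was 3 without WT replicate 2 of set 5, and 2 without KO replicate 1 or 3 or WT replicate 3 of set 3, KO replicate 2 of set 5, or KO replicate 2 or 3 of set 6. Ccr10, a receptor for skin chemokines, averaged -7.54 ± 1.09 in KO and -2.46 ± 0.68 in WT cells of set 5, -5.33 ± 0.55 in KO and -3.86 ± 1.02 in WT cells of set 6, and -6.23 ± 0.33 in KO and -7.87 ± 0.51 in WT cells of set 3. Its late effect of -3.27 came with an early effect of 1.64 that was not called (adjusted p = 0.0864), and the difference was -4.92 (SE 0.71, adjusted p = 0.000118).

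Mitosis genes moved together. All 30 measured members had a negative late minus early difference, between -1.88 and -0.54, against 18.5% negative over all genes. Their median effect was -0.34 late and 0.88 early: 26 were higher in KO early and none was called lower, and late 18 were lower and none was called higher. Of the 30, 15 reversed, 5 vanished and 10 were in no class. The late direction depends on the scale, since the median late effect was 0.06 without centring, where 23 differences were negative and the median difference was -0.81. The early count was 17 without KO replicate 1 of set 3.

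Kif20a, a kinesin of cell division, was at 1.21, 1.68 and 1.28 in KO and 2.32, 2.03 and 2.14 in WT libraries of set 5, and at 1.44, 1.68 and 1.49 in KO and 2.06, 1.99 and 1.87 in WT libraries of set 6. Early it was at 0.48, -0.39 and 0.26 in KO and -0.88, -0.71 and -1.04 in WT libraries of set 3. KO was below WT late and above WT early, in each set without overlap, with a difference of -1.59 (SE 0.22, adjusted p = 7.35e-05 by limma). Top2a, the topoisomerase that untangles sister chromosomes, had effects of -0.40 late and 0.72 early, and Plk1, the polo-like kinase of mitosis, -0.72 late and 1.09 early. Ube2c, the ubiquitin-conjugating enzyme of the anaphase-promoting complex, had an early excess of 1.46 and a late effect of -0.29 (adjusted p = 0.102). Hmmr, a hyaluronan receptor that also binds the spindle, had effects of -0.73 late and 1.15 early. Both genotypes held these genes higher late than early: Plk1 averaged 1.13 ± 0.28 in KO and 2.08 ± 0.09 in WT cells of set 5, 1.28 ± 0.10 in KO and 1.76 ± 0.13 in WT cells of set 6, and -0.31 ± 0.69 in KO and -1.4 ± 0.11 in WT cells of set 3.

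Promoters are shown for the pair Ube2c and Hmmr, from 250 bases before to 50 after the RefSeq gene start on GRCm38.p6, with the hexamer TTTGAA (or TTCAAA, the same letters on the other strand) in capitals. The pair was picked by adjusted p from members whose promoter holds these letters. The hexamer is the core of the cell cycle homology element of G2 and mitosis genes, and it was chosen after the lists had been seen. Ube2c lies at chr2:164769679-164769978 on the plus strand and Hmmr at chr11:40733388-40733687 on the minus strand.
Ube2c: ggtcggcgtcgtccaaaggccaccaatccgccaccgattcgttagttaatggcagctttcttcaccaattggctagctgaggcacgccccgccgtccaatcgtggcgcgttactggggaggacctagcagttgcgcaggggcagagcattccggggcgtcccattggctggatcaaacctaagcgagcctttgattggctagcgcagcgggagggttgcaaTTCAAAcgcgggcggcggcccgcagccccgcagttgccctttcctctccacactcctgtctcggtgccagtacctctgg
Hmmr: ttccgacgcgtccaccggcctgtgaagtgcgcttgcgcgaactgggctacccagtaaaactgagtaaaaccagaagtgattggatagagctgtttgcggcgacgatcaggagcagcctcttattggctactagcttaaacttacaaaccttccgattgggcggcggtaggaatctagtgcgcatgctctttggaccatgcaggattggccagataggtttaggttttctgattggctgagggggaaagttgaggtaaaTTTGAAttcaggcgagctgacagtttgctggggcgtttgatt
Of 28 promoters found for 26 of the 30 members, 22 (78.6%) held the hexamer, against 12.4% of the 12724 promoters of all measured genes found in the table. A match is a run of letters and not a measured site.

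DNA replication genes moved less: 1 of 30 had a positive and 10 a negative difference, beside 19.6% and 18.5% of all genes. Their median of -0.23 was 0.19 without centring, where 14 were positive and 2 negative. Rrm2, the ribonucleotide reductase subunit, had the largest, -1.24 (SE 0.17, adjusted p = 9.07e-05 by limma).

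Reversal in the other direction, KO below WT early and above WT late, was smaller in size, with medians of 0.42 late and -0.45 early over 123 genes. Tspan32, a tetraspanin of blood cells, was at 1.67, 1.03 and 1.09 in KO and -0.75, -0.82 and -1.15 in WT libraries of set 5, and at 1.53, 1.09 and 0.99 in KO and -0.95, -0.74 and -1.0 in WT libraries of set 6. Set 3 gave 0.13, 0.15 and 0.08 in KO and 0.76, 0.76 and 0.95 in WT libraries of set 3. The replicates were tight and no pair of groups compared overlapped, with effects of 2.14 late and -0.71 early and a difference of 2.84 (SE 0.20, adjusted p = 1.31e-06 by limma). Gbp10, a GTPase of the guanylate-binding family that interferon induces, was at 1.48, 1.44 and 2.15 in KO and -0.53, -0.13 and -0.31 in WT libraries of set 5, and at 0.87, 0.99 and 1.12 in KO and -1.24, 0.24 and 0.15 in WT libraries of set 6. Its early values were -1.02, 0.01 and 0.10 in KO and 0.53, 0.72 and 2.14 in WT libraries of set 3. KO was above WT late and below WT early, a difference of 3.08 (SE 0.51, adjusted p = 0.000313).

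Hpgds, the blood cell synthase of prostaglandin D2, averaged 0.84 ± 0.27 in KO and -0.50 ± 0.08 in WT cells of set 5, 1.02 ± 0.17 in KO and -0.40 ± 0.63 in WT cells of set 6, and -5.21 ± 0.51 in KO and -4.09 ± 0.36 in WT cells of set 3. Both genotypes held far more Hpgds late, and the genotype effect of 1.38 late and -1.12 early differed by 2.49 (SE 0.35, adjusted p = 9.59e-05). Dclk2, a doublecortin-like kinase that binds microtubules, averaged -0.86 ± 0.13 in KO and -2.07 ± 0.29 in WT cells of set 5, -0.91 ± 0.25 in KO and -2.42 ± 0.05 in WT cells of set 6, and -2.74 ± 0.06 in KO and -1.66 ± 0.20 in WT cells of set 3, a difference of 2.44 (SE 0.20, adjusted p = 1.68e-06). Early calls were lost for Gbp10 without KO replicate 1 of set 3, WT replicate 3 of set 3 or WT replicate 3 of set 5 (adjusted p up to 0.201 by limma) and for Hpgds without KO replicate 3 or WT replicate 2 of set 3 (up to 0.0956).

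Promoters of 1 named reversing gene in each direction that hold an E-box are shown, since E-boxes are the letters that E proteins bind. The capitals mark CAGCTG, which reads the same on both strands. From RefSeq on GRCm38.p6, Nupr1 lies at chr7:126625421-126625720 on the minus strand and Tspan32 at chr7:143004796-143005095 on the plus strand.
Nupr1: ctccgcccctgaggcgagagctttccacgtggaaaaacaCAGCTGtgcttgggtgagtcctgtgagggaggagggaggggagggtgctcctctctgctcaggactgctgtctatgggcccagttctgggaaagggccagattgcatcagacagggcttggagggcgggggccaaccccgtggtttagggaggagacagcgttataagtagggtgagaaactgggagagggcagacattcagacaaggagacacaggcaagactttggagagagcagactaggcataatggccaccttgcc
Tspan32: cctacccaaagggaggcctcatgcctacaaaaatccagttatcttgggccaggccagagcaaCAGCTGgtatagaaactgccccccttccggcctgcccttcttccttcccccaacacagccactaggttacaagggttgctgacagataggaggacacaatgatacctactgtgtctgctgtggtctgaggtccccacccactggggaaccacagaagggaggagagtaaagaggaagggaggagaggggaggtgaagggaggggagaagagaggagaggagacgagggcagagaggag
Either E-box, CAGCTG or CACCTG on either strand, was in 31.3% of the promoters of genes reversing to higher in KO late and 33.7% of those reversing to lower, against 30.4% of all. It was in 40.3% of promoters of genes that appeared late and higher, 36.4% late and lower, and 34.5% of those that vanished from higher. For genes that vanished from lower it was in 26.1% of 23 promoters. The shares were 43.1% of 58 promoters where an excess in KO grew and 40.0% of 35 where it shrank. These shares are descriptions of letters.

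Interferon-stimulated genes leaned the same way as Gbp10. Of 27 measured, 11 had a positive and 3 a negative difference (18 and 2 without centring), beside 19.6% and 18.5% of all genes. The list's median effects were 0.16 late and -0.20 early, with a median difference of 0.59. Irgm1, an interferon-induced GTPase against intracellular microbes, was at 3.91, 3.82 and 4.3 in KO and 2.59, 2.74 and 2.41 in WT libraries of set 5, and at 3.82, 3.89 and 4.16 in KO and 2.55, 2.91 and 2.62 in WT libraries of set 6. Set 3 gave 2.86, 2.92 and 3.03 in KO and 3.6, 3.42 and 3.7 in WT libraries of set 3. No groups compared overlapped, with KO higher late and lower early, a difference of 1.99 (SE 0.16, adjusted p = 1.68e-06 by limma). Irf9 and Stat2, the partners that carry type I interferon signals to DNA, appeared late, with late effects of 1.03 and 1.27 and early effects of -0.34 and -0.25 that were not called. Gbp2 and Gbp5, GTPases induced by interferon gamma, lost an early deficit: their effects were -0.24 and -0.14 late, not called, and -1.24 and -1.18 early. The members with negative differences were Isg15, a ubiquitin-like modifier (-1.44), Rsad2, the antiviral enzyme viperin (-1.46), and Oas3, a sensor of double-stranded RNA (-0.89).

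**Figure D3:**
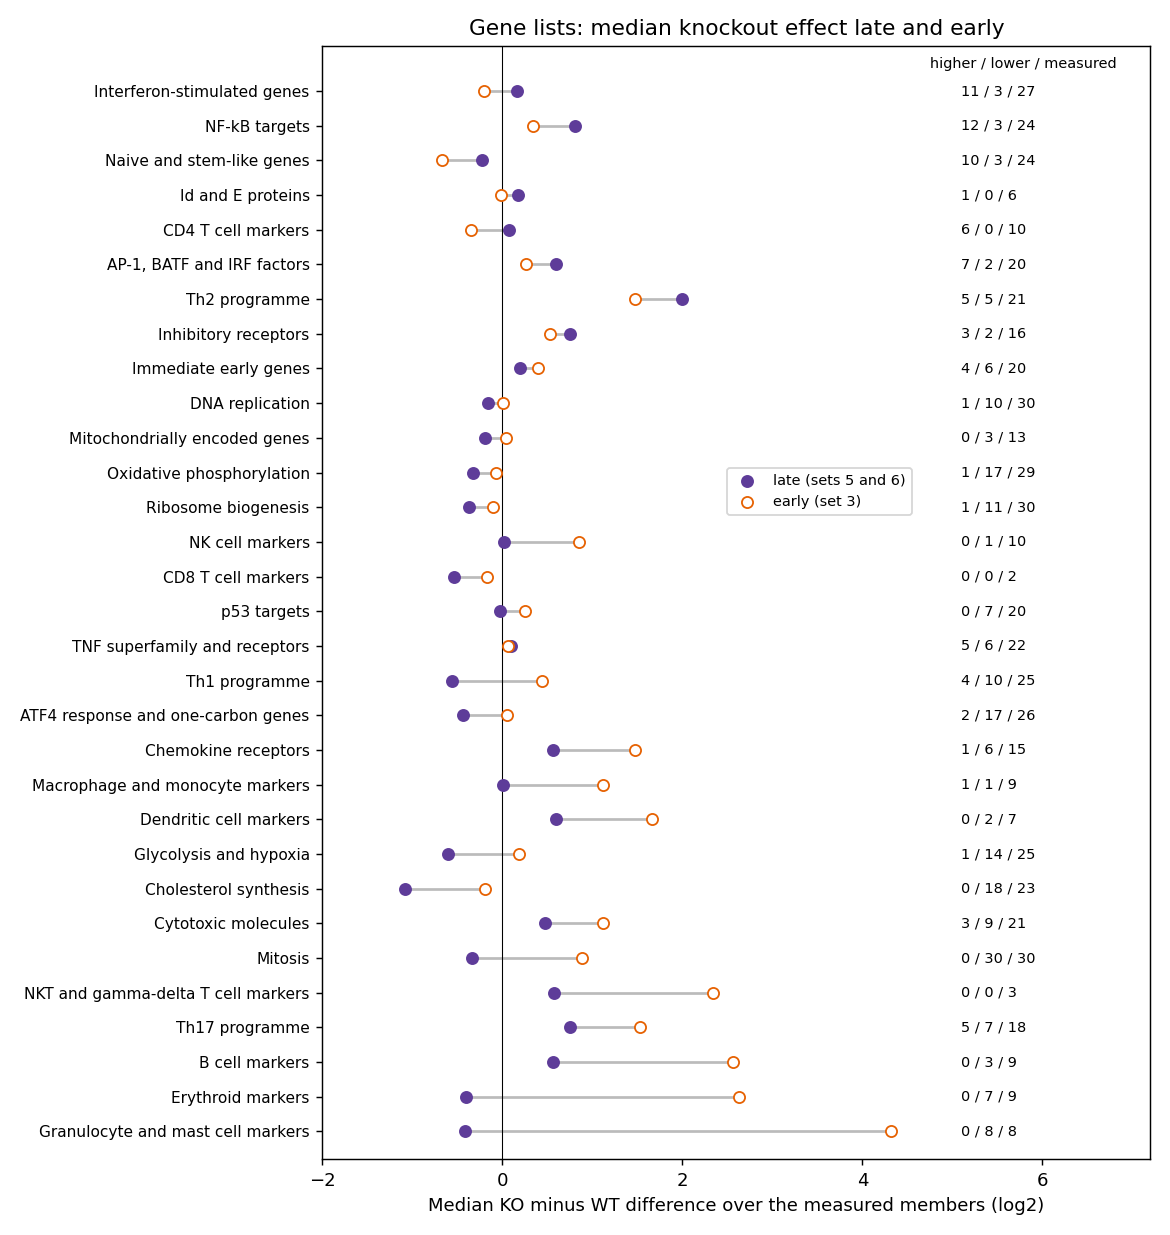
For each of the 31 gene lists the filled circle is the median KO minus WT difference of the measured members late (sets 5 and 6) and the open circle the median early (set 3), both in log2. The numbers at the right count members with a positive and with a negative late minus early difference past the test, and members measured. The mast cell, erythroid and B cell lists have the largest early medians, and in the mitosis list the late median lies below 0 and the early median above it.

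Effects that vanished were mostly early excesses in KO. The 150 genes higher in KO early had medians of -0.05 late and 1.79 early. They were low genes, with a median deposited level of 5.89 against 9.33 over all genes, and 25 of them (16.7%) had a group whose 3 libraries all sat at the lowest value. Csf2rb2, a beta subunit of the mouse IL3 receptor, was at -7.25, -8.4 and -7.23 in KO and -7.62, -7.63 and -7.42 in WT libraries of set 5, and at -6.51, -5.78 and -6.44 in KO and -5.95, -6.59 and -6.44 in WT libraries of set 6. Set 3 gave -1.2, -2.17 and -1.51 in KO and -5.19, -4.78 and -5.17 in WT libraries of set 3. KO stood above WT without overlap in set 3, by 3.42, and overlapped it in sets 5 and 6, where the effect was 0.00, a difference of -3.41 (SE 0.47, adjusted p = 8.69e-05 by limma).

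Il1rl1 encodes ST2, the receptor for IL33 on Th2 cells and mast cells. It was at -1.86, -2.95 and -2.46 in KO and -2.27, -1.95 and -1.67 in WT libraries of set 5, and at -0.66, -2.91 and -0.86 in KO and -1.01, -1.16 and -0.66 in WT libraries of set 6. Early it was at -0.36, -1.29 and -0.97 in KO and -4.08, -2.95 and -3.94 in WT libraries of set 3. Late values overlapped and early KO values were all higher, with effects of -0.50 late (adjusted p = 0.219) and 2.78 early and a difference of -3.28 (SE 0.58, adjusted p = 0.000511). Stc2, a secreted glycoprotein induced by stress, averaged 0.30 ± 1.28 in KO and 0.06 ± 0.10 in WT cells of set 5, 0.46 ± 0.92 in KO and 0.28 ± 0.06 in WT cells of set 6, and -1.93 ± 0.47 in KO and -5.67 ± 0.32 in WT cells of set 3. Its late KO libraries held 1 high value in each set, replicate 2, at 1.74 in set 5 and 1.52 in set 6, and the difference was -3.53 (SE 0.60, adjusted p = 0.000376).

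Cytokines of the IL3 and GM-CSF cluster behaved alike early. Il3, a growth factor of mast cells and basophils, had an early effect of 3.99 and a late mean of -0.10, made of -1.92 in set 5 and 1.72 in set 6, a difference of -4.09 (SE 0.90, adjusted p = 0.0024). With set 6 alone as the late sample the Il3 call was lost. Csf2, which encodes GM-CSF, was at -3.18, -2.5 and -4.25 in KO and -2.57, -2.38 and -1.18 in WT libraries of set 5, and at -2.84, -1.64 and -2.42 in KO and -1.65, -1.93 and -1.41 in WT libraries of set 6. Set 3 gave 1.75, 1.0 and 0.98 in KO and -3.24, -2.65 and -2.55 in WT libraries of set 3. Early KO values were all far above WT, and late values overlapped in both sets with KO lower on average, effects of -0.95 late (adjusted p = 0.014) and 4.06 early, a difference of -5.01 (SE 0.53, adjusted p = 1.16e-05).

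Granulocyte and mast cell, erythroid and B cell markers were also higher in KO early. All 8 measured granulocyte and mast cell markers had a negative difference, with median effects of -0.42 late and 4.31 early. Their summed level was -4.43 to -2.79 in KO and -1.56 to -1.14 in WT libraries of set 5, and -3.55 to -3.02 in KO and -1.66 to -1.48 in WT libraries of set 6. It was 0.25 to 0.68 in KO and -3.19 to -2.37 in WT libraries of set 3. The KO libraries of set 3 stood above every other library. In both late sets the sum was lower in KO than WT without overlap. Tpsb2, a mast cell tryptase, had mean deposited log2 levels of 1.04 in KO and 1.06 in WT cells of set 5, 1.03 in KO and 1.02 in WT cells of set 6, and 6.92 in KO and 1.32 in WT cells of set 3. The late levels are the lowest values of those libraries, so no fold is given, and the same holds for Mcpt4, a mast cell chymase, in the late groups. Cpa3, the mast cell carboxypeptidase, averaged -5.49 ± 0.87 in KO and -6.1 ± 0.47 in WT cells of set 5, -4.58 ± 0.68 in KO and -5.58 ± 0.28 in WT cells of set 6, and -2.98 ± 0.87 in KO and -7.29 ± 0.93 in WT cells of set 3. Kit, the stem cell factor receptor, had a late effect of -2.91 and an early effect of 1.31 that was not called (adjusted p = 0.0753).

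Sprr2a2, a small proline-rich protein of epithelia, had deposited levels of 2.12 in KO and 1.06 in WT cells of set 5, 1.65 in KO and 1.02 in WT cells of set 6, and 9.37 in KO and 2.08 in WT cells of set 3. Erythroid markers had 7 of 9 negative differences, beside 18.5% of all genes. Their summed level was 1.18 to 1.73 in KO and 2.13 to 2.38 in WT libraries of set 5, 0.78 to 1.19 in KO and 1.63 to 1.97 in WT libraries of set 6, and 2.9 to 4.78 in KO and 0.26 to 0.88 in WT libraries of set 3. This sum too was lower in KO late and higher early, each without overlap. Late effects were called higher for 1 and lower for 2 of the 9 erythroid markers, so the late sum does not stand for every member. Hbb-bs, a beta globin, averaged -7.28 ± 2.14 in KO and -7.28 ± 1.44 in WT cells of set 5, -7.82 ± 1.4 in KO and -6.91 ± 2.29 in WT cells of set 6, and 2.35 ± 1.13 in KO and -1.37 ± 0.36 in WT cells of set 3, a difference of -4.17 (SE 1.41, adjusted p = 0.0282) that was lost on leaving out replicate 1 of set 3 in either genotype (adjusted p up to 0.0854 by limma) and with set 5 alone as late (0.0829). The early call of Hbb-bs was lost without any of 13 of the 18 libraries (adjusted p up to 0.209). B cell markers summed to -2.53 to -2.15 in KO and -3.48 to -3.18 in WT libraries of set 5, -3.13 to -2.0 in KO and -3.36 to -2.93 in WT libraries of set 6, and -0.75 to 2.09 in KO and -2.79 to -1.50 in WT libraries of set 3. Of 9 differences 3 were negative, beside 18.5% of all genes. That count was 1 without KO replicate 1, WT replicate 1 or WT replicate 2 of set 3, and 5 without KO replicate 2 or WT replicate 3 of set 3. KO replicate 1 of set 3 had the highest sum for B cell (2.09), dendritic cell (4.84) and erythroid markers (4.78). The part that other cells had in the vanishing effects was not tested, and in these bulk samples fewer cells of a type and less RNA per cell cannot be told apart. Without that library 110 genes vanished instead of 171 and 132 reversed instead of 290.

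**Figure D4:**
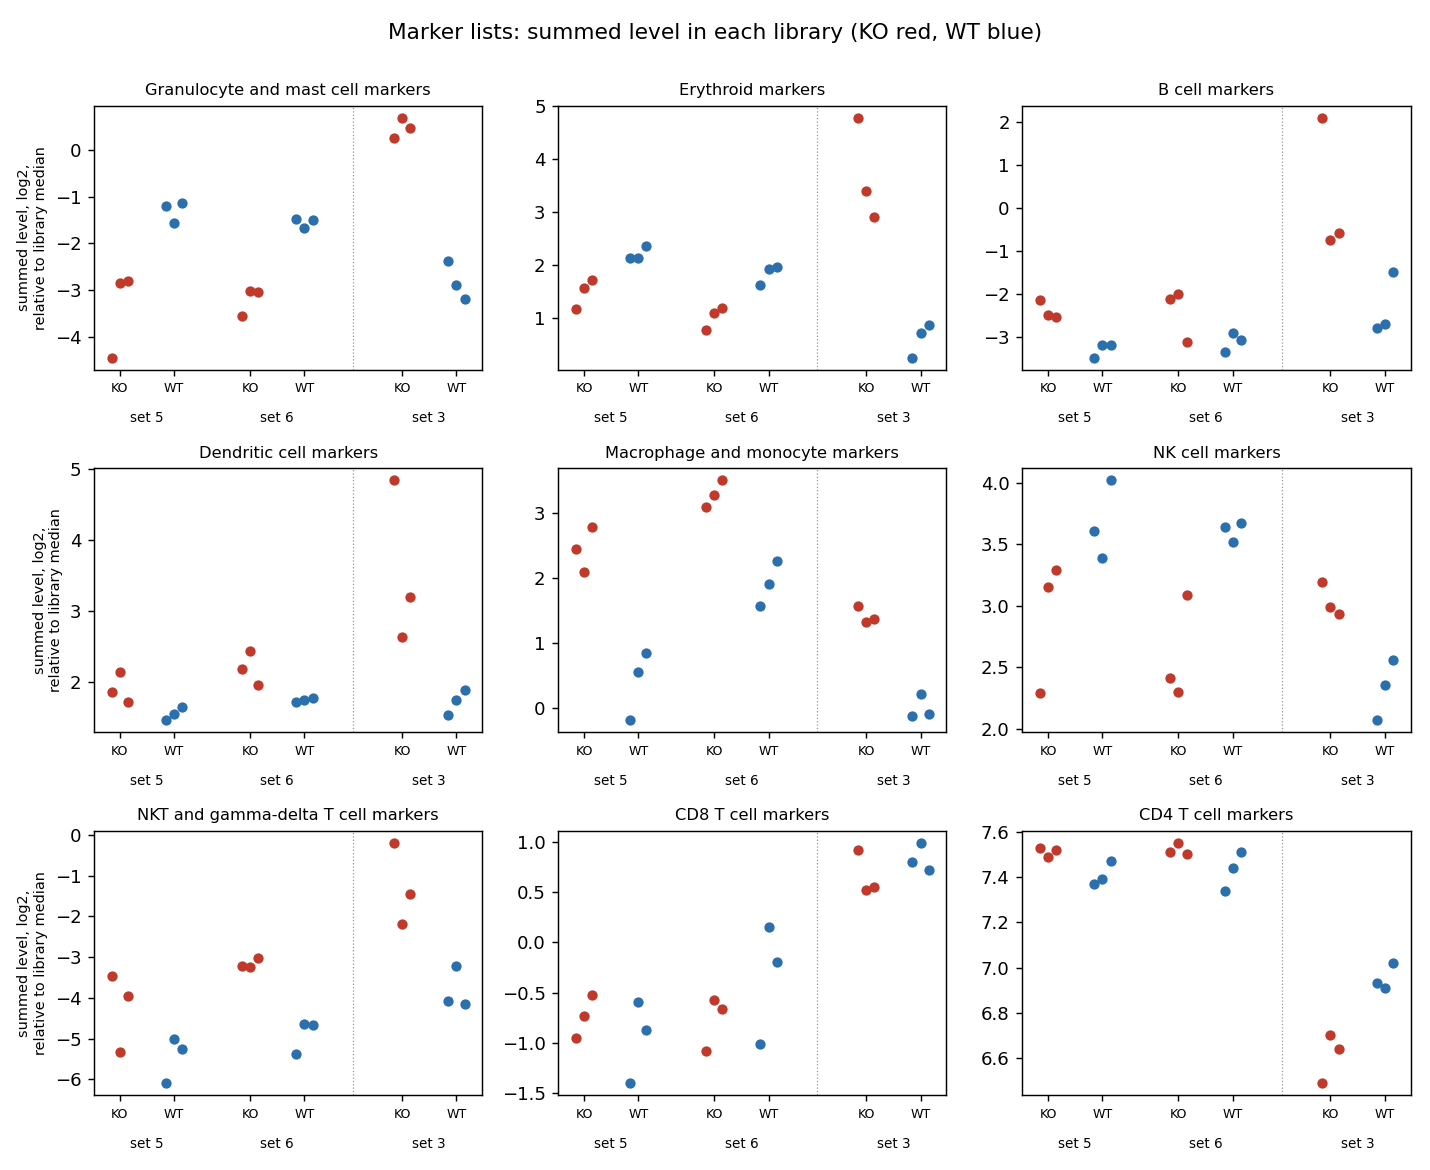
Summed level of each marker list in every library (log2 of the summed linear values, centred), for the 8 lists of other cells and for CD4 T cells, with KO in red to the left of WT in blue for sets 5, 6 and 3. Points are libraries. Granulocyte and mast cell markers reach 0.25 to 0.68 in KO libraries of set 3 and are lower in every other library.

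Early deficits in KO that vanished were fewer, 21 genes. Trib2, a pseudokinase, was at 2.15, 2.2 and 2.32 in KO and 1.99, 1.8 and 2.25 in WT libraries of set 5, and at 0.38, 1.05 and 0.68 in KO and 1.21, 0.90 and 1.31 in WT libraries of set 6. Set 3 gave 0.52, 1.24 and 1.34 in KO and 2.55, 2.38 and 3.19 in WT libraries of set 3. KO was lower than WT early without overlap and the late values overlapped, with effects of -0.11 late and -1.67 early and a difference of 1.56 (SE 0.28, adjusted p = 0.000524 by limma). Slc15a2, a peptide transporter, averaged -2.81 ± 1.49 in KO and -2.18 ± 0.46 in WT cells of set 5, -2.97 ± 0.91 in KO and -2.65 ± 0.21 in WT cells of set 6, and -3.41 ± 0.83 in KO and -0.57 ± 0.47 in WT cells of set 3. Pik3ip1, an inhibitor of PI3 kinase, averaged 1.17 ± 0.25 in KO and 0.50 ± 0.18 in WT cells of set 5, -0.08 ± 0.36 in KO and -0.04 ± 0.26 in WT cells of set 6, and -2.42 ± 0.51 in KO and -1.08 ± 0.77 in WT cells of set 3. Bend5, a BEN domain protein, and Apbb2, a binding partner of the amyloid precursor protein, had early effects of -1.45 and -1.84, and late effects of 0.18 and -0.23 that were not called. Without centring Pik3ip1 and Bend5 counted as reversing, and the early call of Pik3ip1 was lost when KO replicate 1 or when WT replicate 3 of set 3 was left out (adjusted p 0.0549 and 0.0790 by limma). The Slc15a2 call, 2.37 (adjusted p = 0.0194), did not survive the removal of replicate 2 of set 3 from either genotype (adjusted p up to 0.0605).

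Among effects that shrank were those on the Th2 cytokines, which KO cells held above WT in all sets although the medium blocked IL4. Il4 was at 1.66, 0.97 and 1.13 in KO and -0.19, -0.38 and -0.49 in WT libraries of set 5, and at 2.2, 1.78 and 2.14 in KO and -0.07, 0.64 and 0.25 in WT libraries of set 6. Set 3 gave 2.64, 1.16 and 1.44 in KO and -2.43, -2.15 and -4.41 in WT libraries of set 3. KO values lay above WT values in each set and WT levels were higher late than early, with effects of 1.69 late and 4.74 early and a difference of -3.05 (SE 0.56, adjusted p = 0.000653 by limma). Il13 was at -0.75, -1.1 and -0.71 in KO and -3.84, -3.63 and -3.51 in WT libraries of set 5, and at 1.22, 0.92 and 1.26 in KO and -1.48, -1.38 and -1.46 in WT libraries of set 6. Early values were 4.51, 2.41 and 3.34 in KO and -1.93, -0.91 and -1.87 in WT libraries of set 3. Here KO levels were lower late than early, and the effects of 2.69 late and 4.99 early differed by -2.3 (SE 0.45, adjusted p = 0.00101).

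Il5, the eosinophil growth factor, averaged -4.68 ± 0.22 in KO and -7.19 ± 0.41 in WT cells of set 5, -1.87 ± 0.67 in KO and -4.01 ± 0.22 in WT cells of set 6, and 0.07 ± 0.61 in KO and -4.07 ± 0.46 in WT cells of set 3, and Il31, an itch cytokine, averaged -3.21 ± 0.58 in KO and -4.79 ± 0.40 in WT cells of set 5, -2.32 ± 0.70 in KO and -5.26 ± 0.56 in WT cells of set 6, and -2.81 ± 0.74 in KO and -7.53 ± 1.04 in WT cells of set 3. Their differences were -1.81 (SE 0.44, adjusted p = 0.00484) and -2.45 (SE 0.65, adjusted p = 0.00741), and the Il31 call was lost with set 6 alone as the late sample. Among the 11 deficits that shrank were Sfn, the 14-3-3 sigma adaptor, with -1.81 late and -2.96 early, Phf11b, a PHD finger protein, with -0.66 and -1.36, and Pgpep1l, a pyroglutamyl peptidase homologue, with -0.75 and -2.1. The Sfn difference of 1.15 (SE 0.17) gave an adjusted p of 0.000122. The Pgpep1l difference of 1.35 was lost on leaving out any of 3 libraries of set 3, KO replicates 1 and 3 and WT replicate 3 (adjusted p 0.0607 to 0.0956 by limma).

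The Th2 programme as a whole was mixed. Of 21 Th2 genes 5 had a positive and 5 a negative difference (8 and 5 without centring), beside 19.6% and 18.5% of all genes, with median effects of 1.99 late and 1.47 early, and 18 were higher in KO late and 15 early. Gata3 was at 3.24, 2.86 and 2.93 in KO and 0.81, 0.90 and 0.92 in WT libraries of set 5, and at 2.92, 2.62 and 2.76 in KO and 0.67, 0.86 and 0.79 in WT libraries of set 6. Set 3 gave 2.22, 2.52 and 2.53 in KO and 1.71, 1.81 and 1.48 in WT libraries of set 3. KO was above WT everywhere, WT was lower late than early, and the excess was 2.06 late and 0.76 early, a difference of 1.31 (SE 0.14, adjusted p = 1.31e-05 by limma). Il4ra, the IL4 receptor chain, appeared late, with 1.42 late and -0.01 early (adjusted p = 0.973). Bhlhe41, a repressor that acts in Th2 cells, had 3.38 late and 0.52 early, the early effect not called. Cd200r1, an inhibitory receptor on the list, reversed, with -1.01 late and 1.27 early. The count of negative differences was 8 without KO replicate 2 of set 3.

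Ecm1 and Wls were among the 313 genes whose effect appeared late and higher in KO. Ecm1, a matrix protein that lets Th2 cells leave lymph nodes in mice, was at 8.42, 8.24 and 8.24 in KO and 3.94, 4.97 and 4.84 in WT libraries of set 5, and at 8.11, 7.79 and 8.07 in KO and 3.42, 4.59 and 4.38 in WT libraries of set 6. Set 3 gave 1.97, 1.18 and 3.6 in KO and 0.96, 1.58 and 3.67 in WT libraries of set 3. Late KO levels lay above all others, early KO and WT levels overlapped, and the highest early values reached into the range of late WT values, with effects of 3.79 late and 0.18 early (adjusted p = 0.885) and a difference of 3.61 (SE 0.74, adjusted p = 0.00137 by limma). Wls, the carrier that brings Wnt proteins to the cell surface, was at 0.45, 0.34 and 0.54 in KO and -4.41, -3.67 and -3.28 in WT libraries of set 5, and at 0.37, 0.45 and 0.43 in KO and -3.42, -2.8 and -2.95 in WT libraries of set 6. The early samples had -2.15, -2.58 and -2.21 in KO and -2.46, -2.12 and -2.17 in WT libraries of set 3. KO and WT overlapped early, and KO rose above WT late by 3.85, a difference of 3.91 (SE 0.29, adjusted p = 1.31e-06).

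Tmie, known from the mechanical sense of inner ear hair cells, averaged -0.13 ± 0.82 in KO and -4.85 ± 0.79 in WT cells of set 5, -0.83 ± 0.42 in KO and -5.17 ± 1.24 in WT cells of set 6, and -2.47 ± 0.59 in KO and -2.55 ± 0.57 in WT cells of set 3. Tmtc2, a mannosyltransferase of cadherins, averaged -2.65 ± 0.55 in KO and -7.07 ± 0.70 in WT cells of set 5, -2.35 ± 0.47 in KO and -5.67 ± 1.09 in WT cells of set 6, and -3.36 ± 0.27 in KO and -3.28 ± 0.36 in WT cells of set 3. Gask1a, a Golgi-associated protein, averaged -2.63 ± 1.06 in KO and -7.99 ± 0.21 in WT cells of set 5, -4.88 ± 1.04 in KO and -7.88 ± 0.38 in WT cells of set 6, and -6.99 ± 0.56 in KO and -7.31 ± 0.61 in WT cells of set 3. Their differences of 4.45, 3.95 and 3.86 were above 0 with adjusted p of 0.000197, 0.000141 and 0.000681 by limma. Late WT levels of Gask1a lay near the lowest values of their libraries, which limits the sizes of its late effect, its difference and its WT change. In Tmie, Tmtc2, Gask1a and Wls the mean WT level was lower and the mean KO level higher late than early. The class as a whole showed the same parts: the median KO level was 1.11 higher late and the median WT level 0.39 lower.

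Among NF-kB targets positive differences were more frequent than negative ones. Of 24 measured, 12 had a positive and 3 a negative difference (17 and 2 without centring), beside 19.6% and 18.5% of all genes. Medians were 0.81 late and 0.34 early. In KO 19 were higher late and 10 early, beside 29.1% and 7.29% of all genes. The early count was 4 without KO replicate 1 of set 3. Tnfaip3, the ubiquitin-editing brake on NF-kB called A20, was at 5.25, 4.71 and 5.21 in KO and 2.74, 2.82 and 2.78 in WT libraries of set 5, and at 4.52, 4.26 and 4.69 in KO and 2.17, 2.41 and 2.29 in WT libraries of set 6. Set 3 gave 2.99, 2.32 and 2.97 in KO and 1.38, 1.66 and 1.71 in WT libraries of set 3. KO was above WT in each set and the gap was wider late, 2.24 against 1.18 early, a difference of 1.06 (SE 0.21, adjusted p = 0.00106 by limma). Nfkbia, the inhibitor IkB alpha, grew likewise (1.43 late, 0.45 early). Birc3, an inhibitor of apoptosis and ubiquitin ligase, and Relb, a subunit of the noncanonical pathway, appeared late, with 1.15 and 1.01 late and -0.09 and -0.15 early.

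Of 20 AP-1, BATF and IRF factors 7 had a positive and 2 a negative difference (11 and 1 without centring), beside 19.6% and 18.5% of all genes. The other 11 were not called, and the median difference was 0.12. Irf4, which works with BATF at composite sites, was at 2.79, 2.81 and 2.71 in KO and 1.18, 1.02 and 0.72 in WT libraries of set 5, and at 2.44, 2.32 and 2.28 in KO and 0.90, 1.01 and 0.87 in WT libraries of set 6. In set 3 it was at 4.47, 4.64 and 4.87 in KO and 4.52, 4.55 and 4.51 in WT libraries of set 3. Both genotypes held more Irf4 early and overlapped there, while late KO exceeded WT by 1.61, a difference of 1.47 (SE 0.13, adjusted p = 2.32e-06). Batf had an excess of 2.52 late and 0.83 early, and Jun 1.2 late and 0.04 early, the early effect of Jun not called. Fos, the partner of Jun, had a negative difference of -0.72 (SE 0.20, adjusted p = 0.00961), and so had Irf8 (-1.01).

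Of 16 inhibitory receptors 3 had a positive and 2 a negative difference, counts near the shares over all genes. Without centring 6 were positive, and without WT replicate 1 of set 5 there were 4 negative. Cd274, which encodes PD-L1, averaged 3.02 ± 0.34 in KO and 0.62 ± 0.27 in WT cells of set 5, 2.7 ± 0.18 in KO and 0.67 ± 0.35 in WT cells of set 6, and 2.35 ± 0.08 in KO and 2.4 ± 0.20 in WT cells of set 3, so that WT was lower late while KO was not, a difference of 2.26 (SE 0.23, adjusted p = 8.21e-06). Ctla4, the receptor that competes with CD28, had effects of 1.23 late and -0.10 early. Lag3, a receptor for MHC class II, had 1.2 late and 0.03 early. Btla, the HVEM receptor, fell in KO late by 3.08 and had an early effect of -0.72 that was not called, a difference of -2.35 (SE 0.35, adjusted p = 0.00013).

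Gldc and Scd1, both metabolic enzymes, were among the 241 genes whose effect appeared late and lower in KO. Gldc, glycine decarboxylase, was at -7.93, -8.56 and -8.47 in KO and -2.07, -3.34 and -3.13 in WT libraries of set 5, and at -8.3, -7.59 and -7.71 in KO and -2.77, -4.26 and -4.62 in WT libraries of set 6. Set 3 gave -6.86, -8.11 and -7.2 in KO and -7.61, -7.86 and -7.97 in WT libraries of set 3. WT cells of the late sets stood apart from all other groups, and the effects were -4.73 late and 0.42 early (adjusted p = 0.646), a difference of -5.16 (SE 0.63, adjusted p = 3.55e-05 by limma). KO replicates 2 and 3 of set 5 and KO replicate 2 of set 3 were at the lowest values of their libraries. Early levels of both genotypes lay near that value, which limits the sizes of these effects. Scd1, the desaturase that makes oleic acid, was at -2.99, -1.7 and -3.63 in KO and 1.62, 0.81 and 1.41 in WT libraries of set 5, and at -1.5, -1.28 and -1.89 in KO and 1.77, 1.2 and 1.27 in WT libraries of set 6. Its early levels were -0.73, -3.05 and -0.94 in KO and -1.99, -2.74 and -1.25 in WT libraries of set 3. Again late WT was above the rest, with a difference of -3.93 (SE 0.67, adjusted p = 0.00039).

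Ggt1, which breaks down glutathione outside the cell, averaged -2.76 ± 0.35 in KO and 0.73 ± 0.39 in WT cells of set 5, -3.4 ± 0.34 in KO and 0.70 ± 0.17 in WT cells of set 6, and -5.4 ± 0.30 in KO and -5.33 ± 1.16 in WT cells of set 3. Slc15a1, a peptide transporter, averaged -7.01 ± 0.65 in KO and -3.66 ± 0.41 in WT cells of set 5, -7.05 ± 0.54 in KO and -3.24 ± 0.39 in WT cells of set 6, and -6.21 ± 0.40 in KO and -5.8 ± 0.60 in WT cells of set 3. P4ha2, a subunit of the collagen prolyl hydroxylase, averaged -1.06 ± 1.23 in KO and 1.87 ± 0.13 in WT cells of set 5, -0.81 ± 1.15 in KO and 1.62 ± 0.19 in WT cells of set 6, and -2.87 ± 0.77 in KO and -3.32 ± 1.5 in WT cells of set 3, and its late KO replicate 2 was the highest KO value in both late sets. The differences were -3.73, -3.18 and -3.13, with adjusted p of 7.08e-05, 0.000321 and 0.00922. In the class as a whole the median WT level was 0.62 higher late than early and the median KO level 0.64 lower.

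Cholesterol synthesis genes had a larger deficit in KO late than early. None of 23 had a positive and 18 had a negative difference, beside 19.6% and 18.5% of all genes, with a median of -0.93. Without centring 2 were positive and 14 negative, with a median of -0.51. Late, 22 were lower in KO (median -1.08), and early 2 were (median -0.19), 0 to 4 when a library was left out. Hmgcs1, the synthase that makes HMG-CoA, was at 1.53, 2.06 and 1.45 in KO and 4.07, 3.85 and 3.94 in WT libraries of set 5, and at 1.94, 2.37 and 1.89 in KO and 3.95, 3.67 and 3.81 in WT libraries of set 6. Set 3 gave 2.89, 2.66 and 2.74 in KO and 3.61, 3.2 and 3.12 in WT libraries of set 3. KO was below WT in each set without overlap and the deficit was larger late, -2.0 against -0.55 early, a difference of -1.46 (SE 0.20, adjusted p = 7.35e-05 by limma). The early call for Hmgcs1 was lost without any of 8 libraries (adjusted p 0.0506 to 0.188).

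Idi1 and Fdft1, later steps of the pathway, had late effects of -1.34 and -1.13 and early effects of -0.18 and -0.10 that were not called. Sqle, squalene epoxidase, had -1.38 late and -0.35 early.

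The Hmgcs1 promoter is shown because the gene leads the list and holds the sterol regulatory letters (TCAC, any base, CCAC, either strand), in capitals. It lies at chr13:119690101-119690400 on the plus strand (RefSeq, GRCm38.p6).
Hmgcs1: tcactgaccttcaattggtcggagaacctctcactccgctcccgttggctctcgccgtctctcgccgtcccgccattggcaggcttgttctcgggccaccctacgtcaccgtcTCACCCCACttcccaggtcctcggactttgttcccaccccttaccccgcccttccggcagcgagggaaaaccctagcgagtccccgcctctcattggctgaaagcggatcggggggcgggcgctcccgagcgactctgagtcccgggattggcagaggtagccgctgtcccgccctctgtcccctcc
These letters were in 1 of 19 promoters of the list (5.26%) and in 1.06% of all promoters, and variants of the motif were not searched.

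Of 25 glycolysis and hypoxia genes 1 had a positive and 14 a negative difference, beside 19.6% and 18.5% of all genes. Medians were -0.60 late and 0.18 early, with a median difference of -0.83, or -0.41 without centring, where 2 were positive and 6 negative. Slc2a3, the glucose transporter GLUT3, was at 2.15, 2.84 and 1.95 in KO and 3.66, 3.58 and 3.92 in WT libraries of set 5, and at 2.37, 3.29 and 2.17 in KO and 3.87, 3.72 and 4.04 in WT libraries of set 6. Set 3 gave 0.85, 0.52 and 1.15 in KO and 0.48, 0.48 and 0.62 in WT libraries of set 3. Late KO values lay below WT in both sets, and early values overlapped, a difference of -1.65 (SE 0.31, adjusted p = 0.000742 by limma). Vegfa, a growth factor induced by hypoxia, had effects of -1.02 late and 0.34 early. Ldha, lactate dehydrogenase A, had -0.75 late and 0.09 early, and Slc2a1, the transporter GLUT1, -0.60 late and 0.33 early, the early effects not called. Eno2, the neuronal enolase, was the positive member, 2.61 late and 0.26 early.

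**Figure D5:**
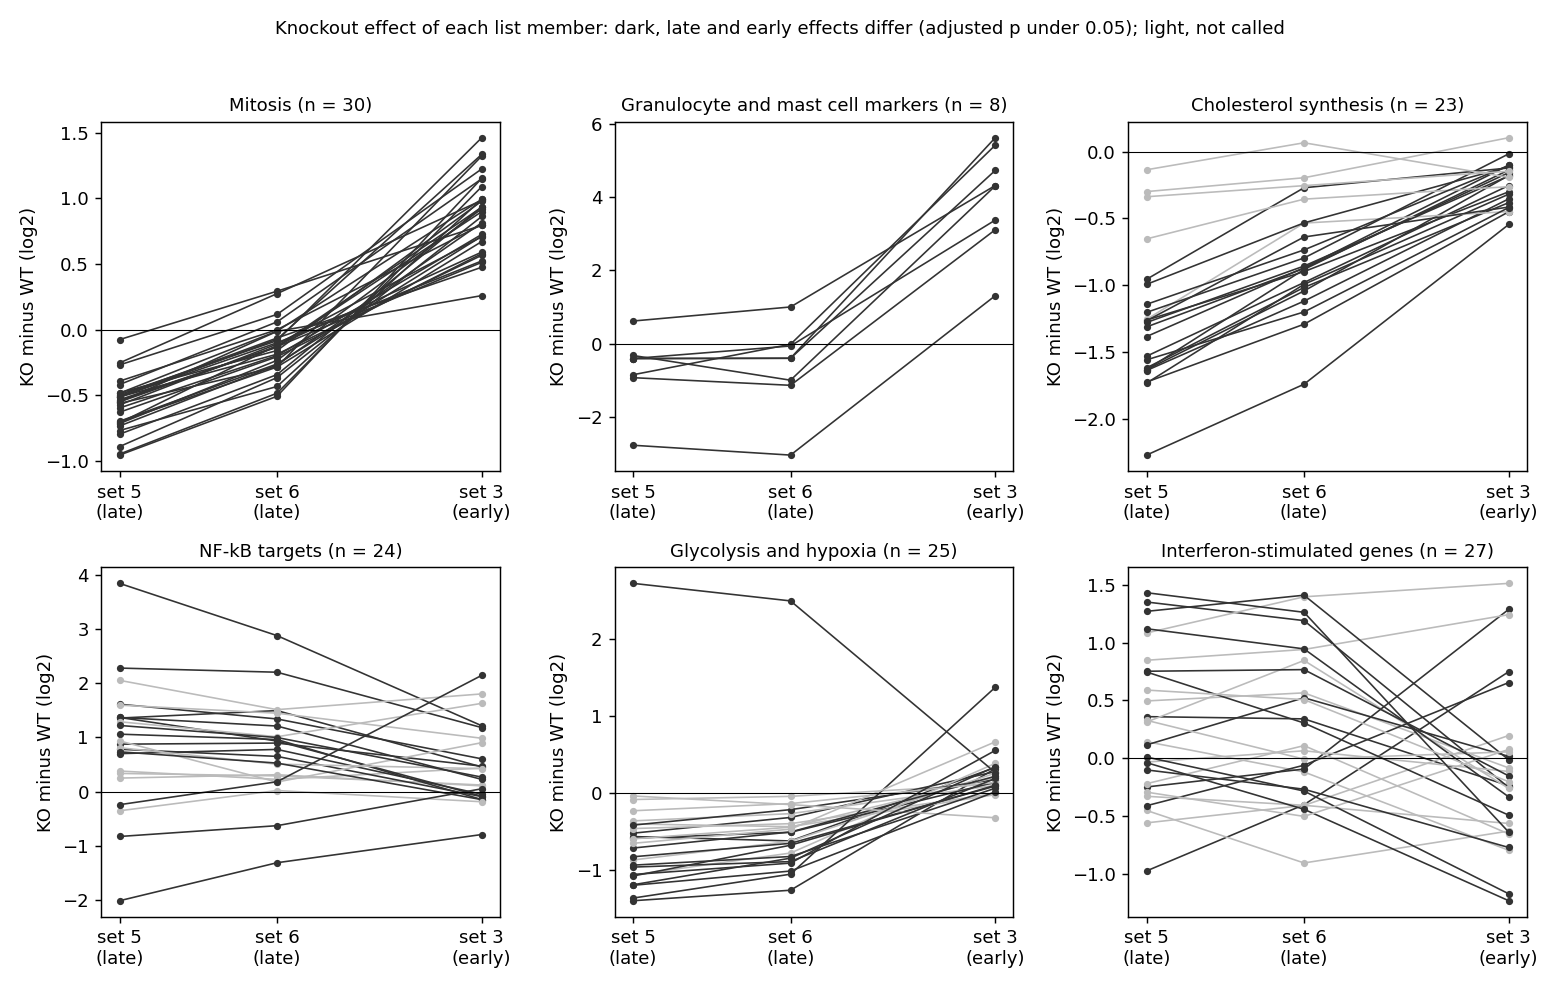
KO minus WT differences (log2) of every measured member of 6 lists in set 5, set 6 and set 3, 1 point per gene, with dark points for members whose late minus early difference passed the test. Mitosis genes lie mostly above 0 in set 3 and below 0 in sets 5 and 6, cholesterol synthesis genes near 0 in set 3 and below it in sets 5 and 6, and granulocyte and mast cell markers far above 0 in set 3 with a median effect of 4.31.

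Genes of the ATF4 response with serine and glycine metabolism had 2 positive and 17 negative differences of 26, beside 19.6% and 18.5% of all genes. Their median of -0.53 was -0.10 without centring, where 5 were positive and 9 negative. Psat1, a serine synthesis enzyme, had -0.78 late and 0.08 early, a difference of -0.85 (SE 0.11, adjusted p = 6.45e-05 by limma). Asns, asparagine synthetase, reversed, with -0.47 late and 1.37 early, and Trib3, a pseudokinase induced by ATF4, had -1.29 late and -0.05 early. Oxidative phosphorylation genes had 1 positive and 17 negative differences of 29, all under 1 in size, and ribosome biogenesis genes 1 positive and 11 negative of 30. Their directions rest on the centring: the medians of -0.26 and -0.28 were 0.17 and 0.15 without it, where 12 and 8 were positive and 0 and 1 negative. The negative count for ribosome biogenesis was 7 without KO replicate 2 or WT replicate 3 of set 3. The positive member of that list lost its call when set 3 lacked replicate 1 of either genotype, the third KO or the second WT library, when set 5 lacked replicate 3 of either genotype, or when set 6 lacked WT replicate 2.

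Effects that grew were few but large. Efna5, the ligand ephrin A5, was at 1.19, 0.17 and 1.39 in KO and -8.07, -7.15 and -7.43 in WT libraries of set 5, and at 0.56, -0.03 and 0.84 in KO and -7.24, -8.06 and -7.93 in WT libraries of set 6. Set 3 gave -0.83, -0.18 and 0.28 in KO and -4.77, -4.18 and -5.43 in WT libraries of set 3. KO levels varied less across the sets than WT levels, which were lower late, and the excess was 8.33 late and 4.55 early, a difference of 3.78 (SE 0.50, adjusted p = 5.91e-05 by limma). The late WT levels of Efna5 were at or near the lowest values of their libraries. This limits the sizes of its late excess and of the difference. Penk, the precursor of enkephalin peptides, averaged -1.01 ± 0.45 in KO and -7.18 ± 0.84 in WT cells of set 5, 0.33 ± 0.13 in KO and -4.44 ± 0.28 in WT cells of set 6, and 1.12 ± 0.36 in KO and -1.13 ± 0.50 in WT cells of set 3. Il1r2, the decoy receptor for IL1, averaged 0.04 ± 1.12 in KO and -6.17 ± 1.31 in WT cells of set 5, 1.01 ± 0.83 in KO and -3.41 ± 0.44 in WT cells of set 6, and 0.09 ± 0.74 in KO and -2.04 ± 0.58 in WT cells of set 3. Il21, a cytokine of follicular helper and Th17 cells, had an excess of 4.09 late and 2.08 early. The early call of Il1r2 was lost without any of 8 libraries (adjusted p up to 0.193), and its difference of 3.19 was lost with set 6 alone as late.

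Among the 12 deficits that grew were those of Nrn1, neuritin, with -3.07 late and -1.39 early (early call lost without WT replicate 3 of set 3, adjusted p = 0.0501 by limma), and Acsl6, an acyl-CoA synthetase, with -3.47 late and -1.82 early. Acsl6 averaged -6.7 ± 0.41 in KO and -1.96 ± 0.19 in WT cells of set 5, -5.59 ± 0.13 in KO and -3.38 ± 0.38 in WT cells of set 6, and -5.08 ± 0.38 in KO and -3.26 ± 0.49 in WT cells of set 3, with a deficit of -4.74 in set 5 and -2.21 in set 6, and the call was lost with set 6 alone.

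Sets 5 and 6 were also compared with each other. No gene had a set 6 minus set 5 difference of knockout effects past the test by limma, 1246 of 12547 had an unadjusted p under 0.05, and 1 gene was called without KO replicate 2 of set 3 or without WT replicate 3 of set 5. With set 5 alone as the late sample 4659 late minus early differences were called, and with set 6 alone 3022. The labels do not say how sets 5 and 6 differ.

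By the adjusted p of the authors' deposited table, 162 of the 290 reversing genes passed 0.05 late, 75 early and 30 both, and all 30 had opposite signs. Of the 554 genes that appeared late 539 had a late adjusted p under 0.05 in the authors' deposited table, and of the 171 that vanished 129 had an early and 10 a late one. The classes were picked by called effects in the same libraries, so these counts are descriptions and no independent check. The share of all genes passing by the authors' adjusted p was not counted.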

How the data were processed

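RNA-seq of 18 mouse T cell libraries was used, with groups taken from the labels. RNA was isolated on RNeasy columns, polyadenylated RNA captured and strand-specific libraries prepared, per the labels' protocols. Salmon 1.9.0, edgeR, limma and GRCm39 are named in the submitters' processing notes, without their roles. The sources used here do not state the normalization. The authors deposited a table of log2 values for 12547 genes, labelled as log counts per the file headers. The authors also deposited their own contrasts, with log2 fold changes, a test score and p-values, raw and adjusted, of which the adjusted p-values were counted. Depth cannot be read from the deposited log2 values. Between 149 and 350 genes per library shared its lowest value (1.0 to 1.11), and genes with a group wholly at that value are given by level, without a fold. Where libraries of a group were at or near that value without all being at it, as for Gldc, Nupr1, Efna5 and Gask1a, effects are given and their sizes are limited by it.

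Each library was centred on its median and limma 3.58.1 in R 4.3.3 fitted 6 group means (12 residual degrees of freedom, variance trend, Benjamini-Hochberg adjusted p under 0.05), without a filter on low values. The code was tested on simulated data. Classes use size limits of 1 and 0.5. Named genes are, per class and direction, the 5 (appears late, vanishes), 4 (reverses) or 3 (grows, shrinks) with the largest difference among genes with a proper symbol, a highest group mean of 6 or more on the deposited scale, no overlap of genotypes in the called comparisons and no group at the lowest value, together with Id3, Id2, up to 4 genes at the lowest value, the 3 members with the smallest adjusted p per direction of each list, and further members beside the count of their list. The 31 gene lists and the classes were chosen with earlier results of these data known. Of the gene identifiers 12528 matched GENCODE M21 names, and 9986 genes had a promoter in the RefSeq table (GRCm38.p6), matched by symbol.

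Deviations from group means correlated at 0.222 to 0.341 between equal replicate numbers of sets 5 and 6 in KO and at 0.115 to 0.156 in WT cells, so the numbers pair these sets within a genotype, as a hint from the data. Between KO and WT of a set they correlated at -0.081 to 0.177 and do not pair. Alternatives were no centring, another centring, quantile normalization, 1 added on the linear scale, a level filter, robust moderation, no trend, library weights, a minimum fold of 1.2, each late set alone, other class limits, replicate blocks and leaving out each library. Results for some genes are not reported here.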

Additional observations from a re-analysis of the deposited data

Results flagged for a closer look

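Late and early knockout effects were called different for 4791 genes by a test of the difference itself. Among the named genes, 8 were singled out because KO and WT stood in opposite order late and early, with both effects and their difference past limma's test. Late minus early differences were 3.08 for Gbp10 (late 1.64, early -1.43), 2.84 for Tspan32 (late 2.14, early -0.71), 2.49 for Hpgds (late 1.38, early -1.12) and 2.44 for Dclk2 (late 1.36, early -1.08). They were -7.8 for Ubd (late -4.84, early 2.96), -6.2 for Serpinb1a (late -3.17, early 3.03), -5.95 for Nupr1 (late -2.14, early 3.81) and -5.68 for Samd3 (late -3.15, early 2.53). For Nupr1 the early size is limited by WT libraries of set 3 at their lowest values.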

How the results depend on the processing

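The 42 named genes kept the direction of their late minus early difference under the alternatives that held them, which were all but a mean level of 6 or more, with 30 of them. Calls were lost at a minimum fold of 1.2 for Pgpep1l, Phf11b and Hbb-bs, and with set 5 alone for Hbb-bs and Slc15a2. With set 6 alone they were lost for Il1r2, Acsl6, Il31, Pgpep1l and Il3. At a minimum fold of 1.2 Gbp10, Tspan32 and Hpgds kept their calls but left the reversing class. Without centring, 6161 differences were positive, 802 negative, 1017 genes appeared late and 132 grew, and 3267 of the 4791 calls remained in the same direction. Among list members named, Cox5b (0.072), mt-Nd1 (0.032), mt-Nd2 (0.026) and mt-Atp6 (0.13) turned positive without centring. A minimum fold of 1.2 left 2137 calls (1082 positive, 1055 negative), 3480 late and 513 early effects, 52 reversals, 20 growing and 12 shrinking genes. With set 6 alone as late, 3022 were called (1597 positive, 1425 negative), 170 reversed and 18 shrank, and with set 5 alone 21 shrank. A mean level of 6 or more left 85 vanishing genes, and library weights gave 74 shrinking genes. Without size limits 3674 appeared late and 418 vanished, and with the lower limit at 0.25 these were 344 and 99. The replicate number as a block gave 5128 calls. The replicate block that averages equal numbers of sets 5 and 6 gave 3996 calls, 5583 late effects and 15 shrinking genes. It lost Pgpep1l among the named genes. The cause of these changes was not tested.

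Leaving out each library in turn gave 4043 to 4952 calls, 2059 to 2529 positive and 1984 to 2423 negative, 462 to 626 genes appearing late, 6735 to 7408 late and 670 to 1810 early effects, and 0 to 1 calls for set 6 minus set 5. It gave 110 to 208 vanishing, 132 to 466 reversing, 33 to 75 growing and 33 to 103 shrinking genes. The lowest counts of early effects (670), vanishing (110) and reversing genes (132) came without KO replicate 1 of set 3, and early effects were 842 without WT replicate 1 of set 3, where 175 genes reversed. The highest counts of reversing (466) and shrinking genes (103) came without KO replicate 2 of set 3. Growing genes were fewest (33) without KO replicate 3 of set 3. Depth is unknown, and with 3 libraries a group the early effect rests on 6 libraries and the late mean on 12.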

Other observations

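Gene groups not described above gave further patterns. The naive and stem-like list had 10 positive and 3 negative differences of 24 (14 and 1 without centring), with medians of -0.23 late (0.17 without centring) and -0.67 early. Ets1, a factor of resting lymphocytes, had effects of 0.77 late and -0.34 early, Satb1, a chromatin organizer, 0.83 late and -0.05 early, and Foxp1, a factor of quiescence, 0.32 late and -0.65 early. Txk, a Tec family kinase, had the opposite sign, a difference of -1.8 (SE 0.28, adjusted p = 0.000169 by limma). The early count of lower naive genes, 11, was 6 without KO replicate 1 of set 3, and the count of negative differences was 1 without WT replicate 1 or 2 of set 3. Among 6 Id and E protein genes Tcf3, which encodes E2A, had the single call, 0.32 (SE 0.09, adjusted p = 0.00848), and 3 of the 6 were positive without centring.

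Immediate early genes had 4 positive and 6 negative differences of 20, and their median of -0.21 was 0.22 without centring, where 6 were positive and 3 negative. The phosphatases of MAP kinases Dusp2, Dusp5 and Dusp4 appeared late and higher in KO, with late effects of 1.63, 1.4 and 1.9 and early effects of -0.30, -0.24 and 0.24 that were not called. Spry1, an inhibitor of growth factor signalling, appeared late and lower (-2.32 late, -0.20 early), and Ier3, an early response gene, had an early excess that vanished (-0.03 late, 2.14 early). Among p53 targets 7 of 20 had a negative and none a positive difference, beside 18.5% and 19.6% of all genes. Their median was -0.39 (0.04 without centring, where 5 were positive and 4 negative). Cdkn1a, the cell cycle inhibitor p21, had -0.30 late and 1.49 early. The TNF superfamily list had 5 positive and 6 negative differences of 22, near the shares over all genes, and 9 and 3 without centring. Tnfsf4, the OX40 ligand, had -2.93 late and 0.63 early, and Tnfrsf4, its receptor OX40, 0.60 late and -0.21 early. Tnfrsf8, the receptor CD30, had an excess in KO of 4.68 late and 2.08 early.

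The Th17 list had 5 positive and 7 negative differences of 18, with medians of 0.75 late and 1.52 early. Rora, a nuclear receptor of Th17 cells, had -0.27 late and 1.63 early, and Il17f 1.07 late and 4.13 early. Of the remaining marker lists, dendritic cells had 2 negative differences of 7, macrophages and monocytes 1 positive and 1 negative of 9, NK cells 1 negative of 10, and CD8 T cells and NKT and gamma-delta T cells 0 of 2 and 0 of 3 by limma. Their summed levels nevertheless differed. Macrophage and monocyte markers summed to 2.09 to 2.78 in KO and -0.20 to 0.84 in WT libraries of set 5, 3.09 to 3.5 in KO and 1.57 to 2.26 in WT libraries of set 6, and 1.32 to 1.57 in KO and -0.13 to 0.21 in WT libraries of set 3, higher in KO without overlap in each set. Of these 9 markers 3 were called higher and 1 lower in KO late, and 3 higher and 0 lower early. The list's median effects were 0.005 late and 1.12 early, so the sum does not stand for every member. Dendritic cell markers summed to 1.71 to 2.14 in KO and 1.46 to 1.64 in WT libraries of set 5, 1.96 to 2.43 in KO and 1.71 to 1.78 in WT libraries of set 6, and 2.64 to 4.84 in KO and 1.53 to 1.88 in WT libraries of set 3. CD4 T cell markers had 6 positive differences of 10, and 10 without centring. Mitochondrially encoded genes, as a sign of RNA quality, had 3 negative differences of 13 (6 without KO replicate 2 of set 3), beside 18.5% of all genes. Their median of -0.24 was 0.19 without centring. Late, 7 were lower in KO, beside 28.7% of all genes. That count was 3 or 4 without KO replicate 3 or WT replicate 1 of set 5, or KO replicate 2 or WT replicate 1 of set 6. Their summed levels were 11.41 to 11.47 in KO and 11.46 to 11.54 in WT libraries of set 5, 11.4 to 11.56 in KO and 11.73 to 11.83 in WT libraries of set 6, and 11.74 to 11.93 in KO and 11.75 to 11.87 in WT libraries of set 3, apart without overlap in set 6.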
